A study of Mus musculus with 4 samples.

Results

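Interferon-stimulated genes were examined in dendritic cells sorted from the lamina propria of the mouse colon, the connective tissue beneath its epithelium. The set was a list of 39 gene names, without the guanylate-binding proteins and the immunity-related GTPases, and the names were matched to array probes through RefSeq accessions. Of these, 35 had a probe, out of 20633 named genes on the array. Mx1, Mx2 and Ifi203 were not matched through an accession, and Phf11 is an older name shared by 3 measured genes, so none of these 4 counts as a member below. The 4 groups were wild-type (WT) and CD300a-deficient (KO) C57BL/6J mice, each kept either free of specific pathogens (SPF) or germ-free (GF), with a single array for each, and the series' design text names 5 mice as the source of each condition's cells, without saying how they were combined. CD300a is an inhibitory receptor that binds phosphatidylserine exposed by dying cells. The labels give SPF mice as female and GF mice as male, and give no age and no description of the deleted part of Cd300a. The comparisons ask whether the loss of CD300a, the absence of microbes, or both together go with a different interferon response in these cells.

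Levels are log2 signals relative to the 75th percentile of all probes on the array, so a level of 0 is a signal brighter than 75% of probes. A genotype difference is KO minus WT and a housing difference GF minus SPF, both on that log2 scale, where 1 means 2-fold. With 1 array per group no difference between a pair of arrays has a replicate check, and none has a p-value. Repeat spots of the same probe within an array had a median SD of 0.09 to 0.10, which covers printing and scanning only. Between 13795 and 15052 genes were above background per array. Cd300a itself read 7.88 in WT and 7.91 in KO cells of SPF mice, and 7.60 in WT and 8.05 in KO cells of GF mice. Where its probe lies relative to the deletion is not stated, so it does not check the genotype, and KO arrays are named here by their label, as KO-labelled. The KO-labelled GF array, labelled male, carried the female transcript Xist at 3.62, against a WT GF reading that was not above background, and also had the Y-linked Ddx3y, Eif2s3y, Uty and Kdm5d above background. Eif2s3y was above background (-2.56) on the KO SPF array too, which is labelled female. Where these transcripts came from was not tested. Results that rest on the KO-labelled GF array are the genotype difference under GF housing, the housing difference in KO-labelled cells and the fits over all 4 arrays, whereas the genotype difference under SPF housing and the housing difference in WT cells stand without it.

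Type I interferons bind a receptor made of IFNAR1 and IFNAR2, whose kinases JAK1 and TYK2 phosphorylate STAT2, among others. With IRF9 it enters a complex that binds the interferon-stimulated response element (ISRE) in the promoters of its targets, while interferon gamma acts through a gamma-activated site (GAS). The induced proteins sense foreign nucleic acid, block translation, degrade RNA, modify other proteins and attract T cells, and several feed back on the pathway. In the gut, microbes are a known source of tonic interferon signals to myeloid cells.

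Promoter sequence was taken from RefSeq (GRCm38.p6) for the 250 bases before each transcription start, and 27 of the 35 members matched. The ISRE core, GAAA followed by any 2 bases and GAAA again, searched on both strands, stood in at least 1 promoter of 11 of these 27 members (40.7%) and of 3.46% of all 27025 genes in the table. The GAS core TTCNNNGAA, a palindrome, stood in 4 of 27 members (14.8%) and in 8.13% of all genes. Only Oas1a held both. The stretches around the match nearest the start are shown for the 4 members with the highest mean signal among those that hold the ISRE letters, to show what a promoter of this set looks like. Capitals mark every base covered by a match, each line runs 5′ to 3′ on the gene's own strand, and all 4 genes lie on the minus strand.
Isg15, chr4:156200845-156200924: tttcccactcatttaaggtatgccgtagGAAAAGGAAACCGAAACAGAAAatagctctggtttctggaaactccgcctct
Cxcl10, chr5:92349063-92349139: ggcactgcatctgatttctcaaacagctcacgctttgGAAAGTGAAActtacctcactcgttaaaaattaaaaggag
Oas1a, chr5:120907526-120907579: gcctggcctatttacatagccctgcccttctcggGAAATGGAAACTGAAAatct
Rsad2, chr12:26456533-26456612: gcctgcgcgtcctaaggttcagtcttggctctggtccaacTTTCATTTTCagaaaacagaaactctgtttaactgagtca
Isg15 held 3 overlapping matches between 78 and 57 bases before its start, and Oas1a held 2 within its last 20 bases. Cxcl10 had a single match 213 bases upstream, and Rsad2 a single match 120 bases upstream in the reverse direction. The other members with the letters were Ifit1, Ifit3, Oas1g, Oas3, Slfn5, Stat2 and Trim30a. These matches are letters in a window and no measured binding.

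A probe's signal depends on the probe as well as on the transcript, so each member is compared across arrays and not with another member. By mean signal 10 of the 35 members were in the brightest quartile of measured genes, 15 in the next, 7 in the third from the top and 3 in the dimmest, and none was saturated. Their median level was 0.73 and 0.40 on the WT and KO arrays of SPF mice, and 0.44 and -0.08 on those of GF mice. Among the 32 members above background on all 4 arrays, 15 were highest on the WT SPF array and 0 lowest there, while 0 were highest and 18 lowest on the KO GF array. For all 12882 genes above background on 4 arrays, the same shares were 23.6% highest and 20.1% lowest on the WT SPF array, and 22.8% highest and 40.4% lowest on the KO GF array.

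**Figure D1:**
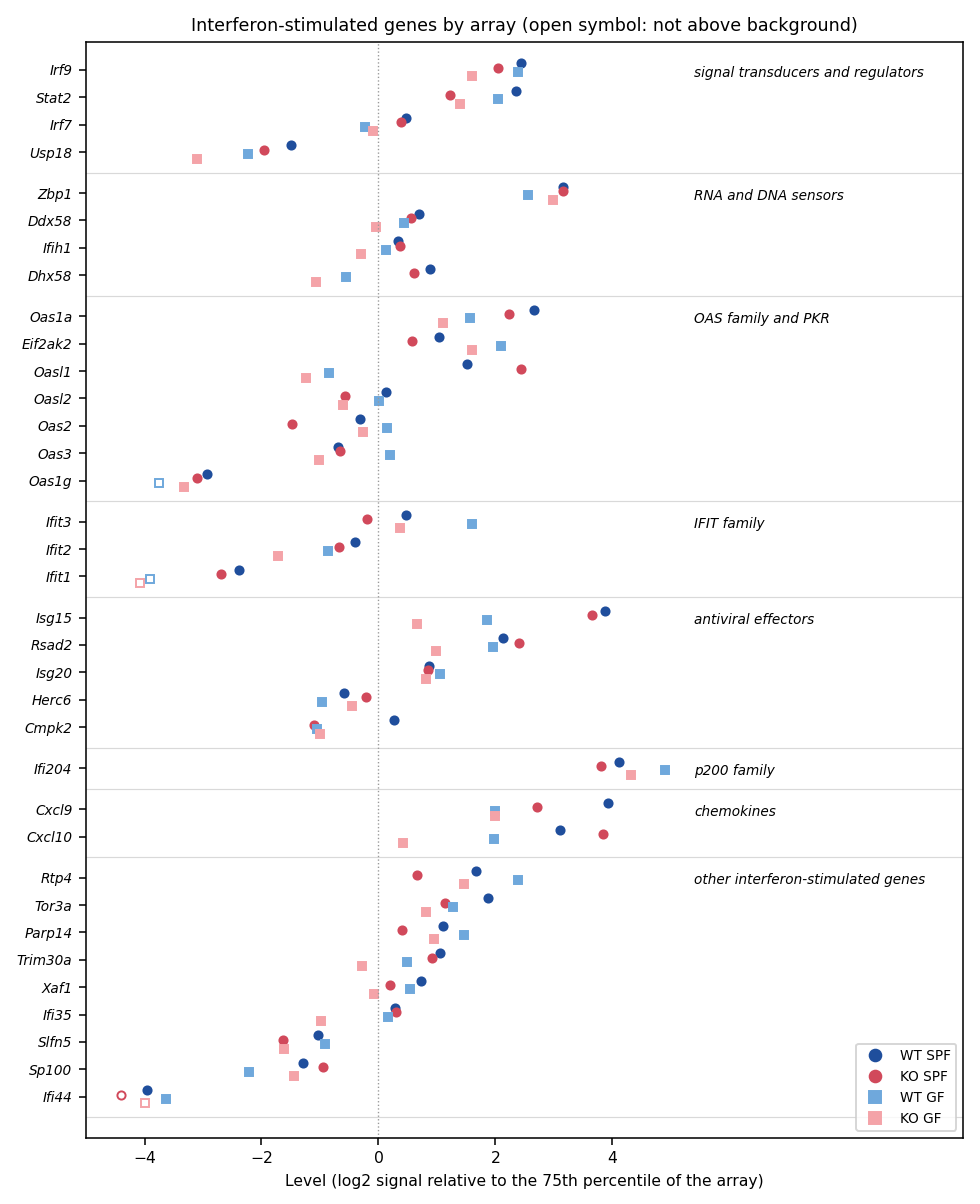
Level of each of the 35 members (x axis, log2 signal relative to the 75th percentile of the array) on each of the 4 arrays, grouped by role and ordered by mean level, with open symbols where the probe was not above background. Circles are SPF and squares GF arrays, and dark and light blue are WT and reds KO-labelled. Isg15, Oasl1 and Cxcl10 have both GF squares to the left of both SPF circles, while Eif2ak2 and Ifi204 have them to the right.

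Under SPF housing, members were mostly lower on the KO-labelled array, by small amounts. The 5 members at least 2-fold lower were Cmpk2 (-1.36), a mitochondrial nucleotide kinase, the T cell chemokine Cxcl9 (-1.20), the RNA-activated synthetase Oas2 (-1.16), the transcription factor Stat2 (-1.12) and the chaperone Rtp4 (-1.01). None was 2-fold higher, and Oasl1 (0.92) and Cxcl10 (0.74) were the highest. That is 5 of 35 lower (14.3%) where 6.61% of all 14875 genes measured were 2-fold lower, and 0 of 35 higher where 5.61% of genes were. The median of members was -0.31 against -0.064 for all genes, and 26 of 35 (74.3%) were below 0, as were 55.7% of all genes. Within the brightest quartile, the 10 members had a median of -0.35 and all genes -0.01. In the next quartile, the 15 members had -0.28 and all genes -0.07. With normexp background correction 2 members were 2-fold lower. On this pair the KO-labelled array had 6 of 9 measured B cell and plasma cell markers at 2-fold higher or more. For Ms4a1, not above background on the WT SPF array, the bound was 1.65-fold. Also 2-fold higher were 3 of 11 conventional and 2 of 9 plasmacytoid dendritic cell markers and 3 of 13 macrophage and monocyte markers. So were 3 of 9 T cell and natural killer cell markers and 3 of 11 epithelial markers. Of these lists only the epithelial one held a marker 2-fold lower, 1 of 11. Summed levels of these cell types are set out further on, and their part in the members' differences was not tested. In sorted bulk cells, fewer cells of a type and less RNA per cell cannot be told apart.

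Under GF housing, members were again mostly lower on the KO-labelled array, but other members led. The chemokine Cxcl10 (-1.55), Ifit3 (-1.24), which binds in a complex with other IFIT proteins, the synthetase Oas3 (-1.21), the ubiquitin-like modifier Isg15 (-1.20) and Ifi35 (-1.15) were at least 2-fold lower. By the main probes Sp100 (0.78), a nuclear body protein, and Herc6 (0.52), the ligase that attaches ISG15 in mice, were the highest. The other Herc6 probe gave -1.73 in this pair. Of 34 measured members 5 were 2-fold lower (14.7%) and 0 higher, where 7.77% and 8.81% of all 15694 genes were. The median of members was -0.52 and that of all genes -0.20, and 27 of 34 members (79.4%) were below 0, as were 61.0% of all genes. Bright genes were lower on this pair in general, and within quartiles the medians were -0.72 for 10 members against -0.45 for all genes in the brightest quartile and -0.49 for 15 members against -0.28 in the next. On this pair 4 of 10 measured conventional dendritic cell markers were 2-fold lower too and 0 higher. All 13 macrophage and monocyte markers were below 0 (median -0.81, 3 of them 2-fold lower), and 14 of 15 epithelial markers were above 0 (median 0.65, 4 of them 2-fold higher). The part of these markers' cells was not tested. With the deposited table, whose scaling adds 0.29 to each difference of this pair, only Cxcl10 stayed 2-fold lower, Sp100 became 2-fold higher, and the median of members was -0.23 against 0.08 for all genes.

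Of 34 members 0 were 2-fold lower in both housings, where 92 of 14200 genes were. Of 34 members measured in both, 21 were below 0 in both pairs (61.8%), 3 above 0 in both (8.82%) and 10 in opposite directions, where 36.0% of all 14200 genes were below 0 in both and 16.7% above. In a limma fit of genotype with housing as a block, 0 of 35 members passed an adjusted p of 0.05, where 21 of 15026 genes (0.14%) passed, 0.0732% of genes higher and 0.0666% lower. At an unadjusted p under 0.05 there were 3 of 35 members and 956 of 15026 genes, a like share. The lowest adjusted p among members in limma was 0.685, for Rtp4, at -0.96 (SE 0.39) and lower on the KO-labelled array in both of 2 pairs, and across the alternatives that p ran from 0.339 to 0.976. The fit has 1 residual degree of freedom, which is how far the genotype difference itself differs between the housings. Its SE also draws on the variances of all genes tested, weighted as 10.5 degrees of freedom, so it is no spread between replicates.

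**Figure D2:**
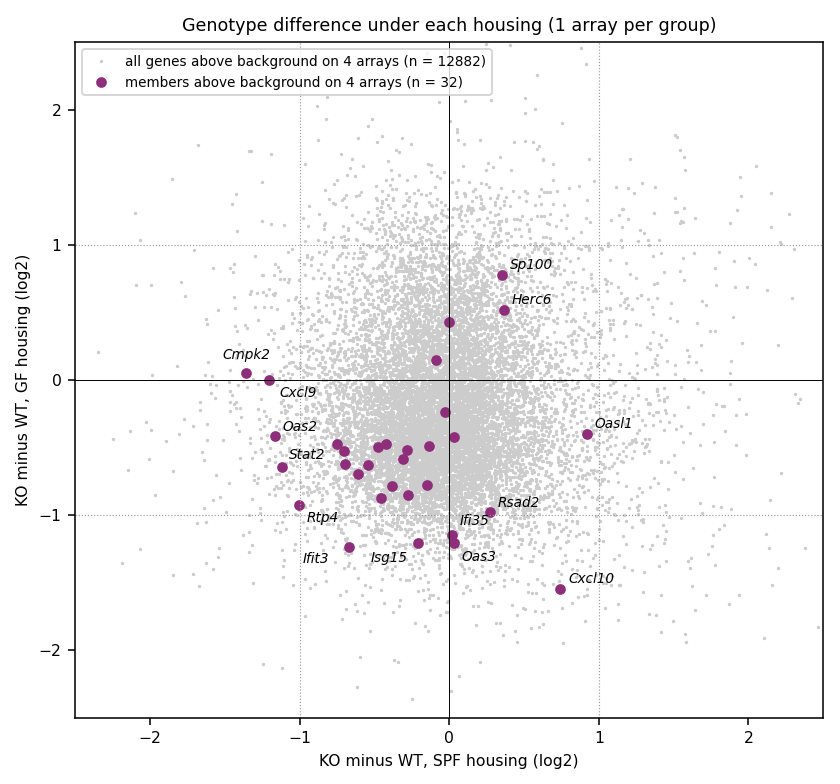
KO minus WT difference under SPF (x axis) and GF housing (y axis), both log2, for the 32 members above background on all 4 arrays (purple) and all 12882 such genes (grey), with dotted lines at 2-fold and the axes ending at 2.5. Most members lie in the lower left quadrant. Stat2, Oas2, Cmpk2, Cxcl9 and Rtp4 pass the 2-fold line on the x axis only, and Cxcl10, with Oas3, Isg15, Ifi35 and Ifit3, on the y axis only.

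Between housings most members differed by less than 2-fold, and those past it were mainly lower on the GF arrays. Oasl1, Isg15, Cxcl10, Dhx58, Ifit1 and Oas1a were at least 2-fold lower on the GF array in both genotypes, although the other probe of Oas1a was higher there. Eif2ak2 was at least 2-fold higher in both. That is 6 of 34 lower and 1 of 34 higher, where 707 of 14853 genes were 2-fold lower and 1661 higher in both. In WT cells 8 of 35 members were 2-fold lower (22.9%) and 2 higher (5.71%), where 9.44% and 17.5% of all 15653 genes were. In KO-labelled cells 11 of 34 were lower (32.4%) and 2 higher (5.88%), where 15.4% and 21.6% of 15569 genes were. The medians of members were -0.30 and -0.40, against 0.13 and 0.05 for all genes. With the deposited table the KO median was -0.063 against 0.39 for all genes, and 6 members were 2-fold lower. With normexp 5 were lower in each genotype, and in KO-labelled cells 0 were higher.

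In limma for housing with genotype as a block, 5 of 35 members passed, all lower on the GF arrays, and 0 higher. This is 14.3% of members, where 16.7% of all genes passed in either direction, 5.24% of all genes lower and 11.4% higher. Oasl1 stood at -3.02 (SE 0.43, limma adjusted p 0.000477) and Isg15 at -2.50 (SE 0.42, 0.00134), and both passed under every alternative run. Cxcl10 followed at -2.27 (SE 0.51, limma adjusted p 0.00999) and Dhx58 at -1.55 (SE 0.39, 0.0178), each lower in both genotypes. Ifit1 passed as well (limma adjusted p 0.0248), but neither of its GF readings was above background, so its fitted size is left out and its folds are given as bounds further on. With the deposited table these 3 lost the call. Cxcl10 and Ifit1 lost it with normexp as well, and Ifit1 with the intensity trend. With normexp and with the intensity trend Eif2ak2 passed, higher on the GF arrays. Cxcl9 and Oas1a, lower there, passed with the intensity trend and with genes above background on all 4 arrays. Cxcl9 passed with the mean of a gene's probes too. Housing cannot be told apart from slide, scan and labelled sex, since slide 1 and scan 1 held the SPF pair and slide 2 and scan 2 the GF pair. All 15 epithelial markers read at least 2-fold higher on the GF arrays in both genotypes. For Cdx2, not above background on the WT SPF array, the bound in WT was 1.65-fold. The list's summed level, the log2 of its added linear signals, was 2.38 and 2.90 on the SPF arrays and 8.70 and 9.23 on the GF arrays. The part of these markers' cells in the housing differences was not tested.

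**Figure D3:**
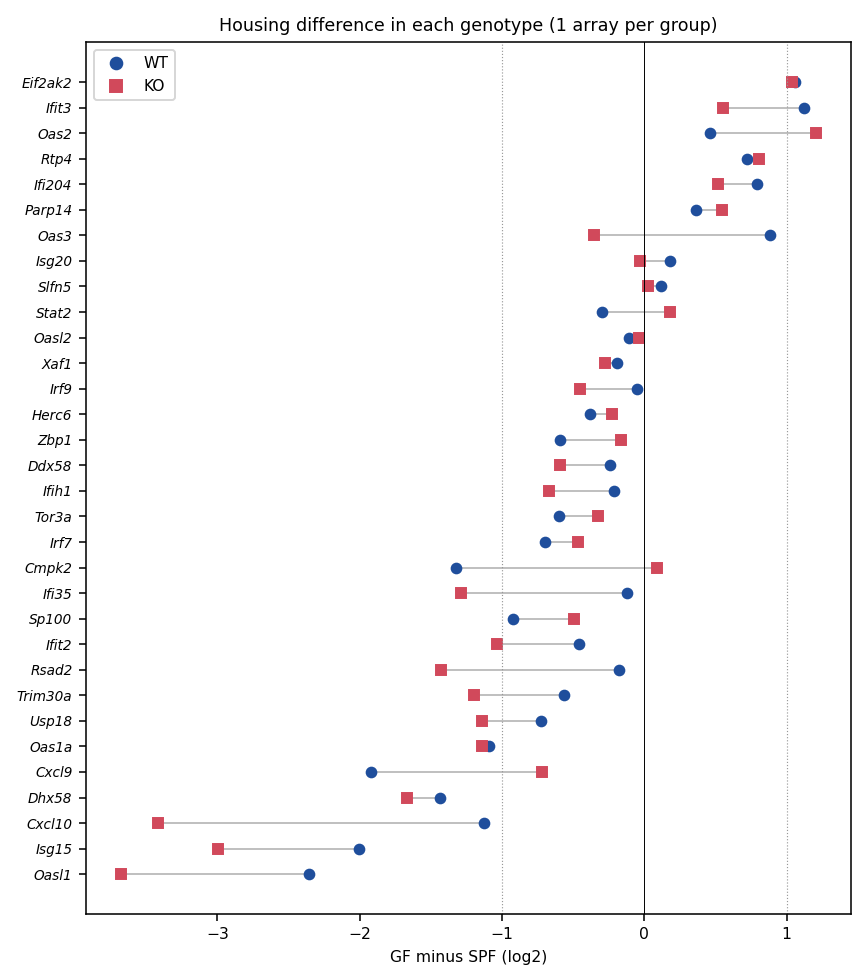
GF minus SPF difference (x axis, log2) in WT (blue circles) and KO-labelled cells (red squares) for the 32 members above background on all 4 arrays, ordered by the sum of both, with dotted lines at 2-fold. Oasl1, Isg15 and Cxcl10 at the bottom reach -2.36, -2.00 and -1.12 in WT and -3.68, -3.00 and -3.42 in KO-labelled cells. Eif2ak2, Ifit3 and Oas2 lie at the top.

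Among the transducers of the signal is Irf9, the DNA-binding partner of STAT2. It read 2.43 (WT) and 2.05 (KO) in SPF housing and 2.38 (WT) and 1.59 (KO) in GF housing. Stat2 read 2.34, 1.22, 2.05 and 1.40 in the same order, so both KO-labelled arrays were below both WT arrays. Usp18, the protease that removes ISG15 and damps the receptor, read -1.50, -1.96, -2.23 and -3.10. It was lower on the KO-labelled array in each housing and lower on the GF array in each genotype, with -1.14 in KO-labelled cells. Irf7, which amplifies interferon production, stayed within 0.70 over the 4 arrays.

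The sensor Zbp1 recognises Z-form nucleic acid. Its levels were 3.16 on both SPF arrays and 2.56 (WT) and 2.99 (KO) on the GF arrays, while its other probe gave -1.19 for genotype under SPF housing, so the genotype difference depends on the probe. Dhx58 encodes LGP2, a helicase that tunes RNA sensing, with levels of 0.88 (WT) and 0.60 (KO) in SPF and of -0.55 and -1.07 in GF mice. Both SPF values were above both GF values, by 2.70-fold in WT and 3.18-fold in KO-labelled cells. The RNA sensors Ddx58 (RIG-I) and Ifih1 (MDA5) did not reach 2-fold in any pair by their main probes, with GF minus SPF differences of -0.24 and -0.21 in WT and -0.59 and -0.67 in KO-labelled cells. The other Ddx58 probe was higher on the GF arrays, by 1.24 in WT and 1.28 in KO-labelled cells, opposite to the main one.

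The OAS proteins make the short adenylates that activate RNase L, and the OASL proteins are relatives that tune RNA sensing or the translation of Irf7. Oas1a read 2.66 on the WT SPF, 2.24 on the KO SPF, 1.57 on the WT GF and 1.1 on the KO GF array. Oas2 read -0.31, -1.47, 0.15 and -0.26, with the KO SPF array apart from the other 3. Oas3 read -0.69, -0.66, 0.19 and -1.02, with the WT GF array highest. Between housings the main Oas1a probe ran opposite to Oas2, and the other Oas1a probe ran with it.

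Oasl1 had the widest range of all members. It read 1.52 (WT) and 2.44 (KO) in SPF housing, but -0.84 (WT) and -1.24 (KO) in GF housing. The SPF and GF values did not overlap, and the GF array was 5.12-fold lower in WT and 12.8-fold lower in KO-labelled cells. Its relative Oasl2 showed no such gap, at 0.12, -0.57, 0.02 and -0.61, where the KO-labelled arrays were the lower in both housings. Oas1g was close to background, at -2.93, -3.11 and -3.32 on the WT SPF, KO SPF and KO GF arrays, and was not above background on the WT GF array, where it was at least 1.77-fold lower than on the WT SPF array. Eif2ak2, the kinase PKR that stops translation, read 1.04 and 0.57 on the SPF arrays and 2.10 and 1.60 on the GF arrays. Both of its GF values were above both SPF values, while the KO-labelled array was lower in each housing, at -0.47 and -0.49.

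The IFIT proteins bind foreign RNA ends. Between housings Ifit3 was higher on the GF array in both genotypes, while Ifit1 and Ifit2 were lower. Ifit3 read 0.47 and -0.19 on the WT and KO arrays of SPF mice, and 1.60 and 0.36 on those of GF mice. It was highest on the WT GF array and lower on the KO-labelled array in each housing. Ifit2 read -0.40, -0.67, -0.86 and -1.71, lowest on the KO GF array. Ifit1 read -2.39 and -2.70 on the SPF arrays and was not above background on either GF array, so it was at least 2.86-fold lower in WT and at least 2.38-fold lower in KO-labelled cells. Ifit3 has a close copy in the genome, and whether its probe also reads that copy was not tested.

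Among the antiviral effectors, Isg15 had the widest range over arrays. It encodes a ubiquitin-like protein that is attached to others and also secreted. Isg15 read 3.87 on the WT SPF and 3.66 on the KO SPF array, then 1.86 on the WT GF and 0.66 on the KO GF array. The SPF values did not overlap the GF values, and the GF array was 4.01-fold lower in WT and 7.99-fold lower in KO-labelled cells. Rsad2, which encodes viperin, read 2.14, 2.41, 1.96 and 0.98, with the KO GF array below the other 3. Cmpk2, which lies beside Rsad2 in the genome, read 0.26, -1.09, -1.06 and -1.0, with the WT SPF array above the other 3. The other Cmpk2 probe read -0.80, -1.16, -1.06 and -1.47, lowest on the KO GF array, so the pattern of Cmpk2 depends on the probe. By its main probe the exonuclease gene Isg20 varied least of all members, between 0.82 and 1.05, while its other probe ran from -0.48 to 0.18. Herc6 did not reach 2-fold in any pair by its main probe, whereas its other probe gave -1.73 for genotype under GF housing.

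The chemokines Cxcl9 and Cxcl10 both attract T cells through CXCR3, Cxcl9 being the more dependent on interferon gamma. Cxcl9 read 3.92 in WT and 2.72 in KO-labelled cells of SPF mice and 2.0 on both GF arrays. Cxcl10 read 3.10, 3.84, 1.97 and 0.43 in the order WT SPF, KO SPF, WT GF and KO GF. Cxcl9 was thus highest in WT and Cxcl10 highest in KO-labelled cells of SPF mice, and both were lower on the GF arrays. For Cxcl10 the housing difference was 2.18-fold in WT and 10.7-fold in KO-labelled cells. The genotype difference turned from 0.74 under SPF to -1.55 under GF housing, a gap of -2.29 that was the widest of all members and has no test.

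Ifi204, a p200 family protein that takes part in DNA sensing in the nucleus, had levels of 4.11 on the WT SPF, 3.81 on the KO SPF, 4.91 on the WT GF and 4.32 on the KO GF array. It was higher on the GF array in each genotype and lower on the KO-labelled array in each housing, and reached 2-fold in neither. Ifi204 belongs to a cluster of near-identical genes, and whether its probe also reads its relatives was not tested.

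Of the remaining 9 members, Rtp4 read 1.67, 0.67, 2.39 and 1.47 on the WT SPF, KO SPF, WT GF and KO GF arrays. It was lower on the KO-labelled array at -1.01 and -0.92, and higher on the GF array by 0.72 and 0.80, the 2 effects running side by side. Ifi35 read 0.28, 0.30, 0.16 and -0.99, and Trim30a, which restrains Toll-like receptor signalling, 1.06, 0.92, 0.50 and -0.28. In both the KO GF array was the lowest. Xaf1, Parp14, Tor3a and Slfn5 were lower on the KO-labelled array in each housing, with differences from -0.75 to -0.47, without reaching 2-fold. Ifi44 was near the detection limit, at -3.95 on the WT SPF and -3.64 on the WT GF array, and was not above background on either KO-labelled array, where under GF housing it was at least 1.24-fold lower. Of all 35 members, 16 reached 2-fold in no pair by their main probes, with differences between -0.92 and 0.79.

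Where a member had a further probe the agreement was partial, and 10 members had 2 probes above background on both arrays in each pair. Their directions matched for 6 of 10 members in the genotype pair under SPF, 5 of 10 under GF housing, and 6 of 10 in each housing pair. The other probe of Isg15 gave -2.11 and -4.11 for GF minus SPF in WT and KO-labelled cells, the same direction as the main one. For Cxcl9 the other probe gave KO minus WT differences of -2.75 under SPF and -1.66 under GF housing, where the main probe gave -1.20 and 0.00. The other Oas1a probe was higher on the GF arrays, by 0.65 in WT and 0.31 in KO-labelled cells, against -1.09 and -1.14, so the housing direction of Oas1a depends on the probe. The other Cmpk2 probe differed by -0.36 between genotypes under SPF housing, in place of -1.36. The other Ifih1 probe was higher on the KO SPF array by 1.54, and the other Herc6 probe stood at -1.73 for genotype under GF housing. Oasl1, Cxcl10, Dhx58, Ifit1, Stat2, Oas2, Oas3, Ifit3, Rtp4, Eif2ak2 and Rsad2 rest on 1 probe each.

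Upstream of these genes, Ifnb1, which encodes interferon beta, read 0.54 on the WT SPF and 1.61 on the KO SPF array and was not above background on either GF array. It was at least 22.7-fold lower on the GF array in WT and at least 47.0-fold lower in KO-labelled cells. Only 9 of the 14 matched interferon genes were above background on any array, and Ifna1 differed in the other direction, from -1.91 to -1.61 in WT and from -2.16 to -0.51 in KO-labelled cells. Of the receptor chains, Ifnar1 read 3.36 and 4.37 in WT and KO-labelled cells of SPF mice and 2.18 and 1.58 in those of GF mice, and Ifnar2 4.54, 4.22, 3.94 and 2.63. Ifnar1 thus had the order of Oasl1 and Cxcl10, highest on the KO SPF and lowest on the KO GF array. Of 20 receptor and signalling genes, 4 were at least 2-fold lower and 0 higher on the KO-labelled array under GF housing, with a median of -0.64. Under SPF housing 0 of 19 were lower and 1 higher, with a median of -0.10. Of all genes, 7.77% were lower and 8.81% higher under GF housing (median -0.20, and -0.45 in the brightest quartile). Under SPF housing 6.61% of all genes were lower and 5.61% higher (median -0.064). The epithelial interferon lambda receptor Ifnlr1 was detected on the GF arrays alone, at least 7.63-fold above WT SPF in WT and at least 9.99-fold above KO SPF in KO-labelled cells.

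Other interferon-induced genes were also lower on the KO-labelled arrays at the median, read with the 75th percentile scaling alone. Of all genes, 6.61% were at least 2-fold lower and 5.61% higher on the KO-labelled array under SPF housing (median -0.064). Under GF housing 7.77% were lower and 8.81% higher (median -0.20, and -0.45 in the brightest quartile). Of 33 further interferon-stimulated genes, 2 were lower and 0 higher under SPF (median -0.24), a share of lower genes like that of all genes. Under GF housing 7 were lower and 1 higher (median -0.64). Among them Slfn1, a growth regulator of T cells and myeloid cells, stood at -2.46 under SPF housing. The antiviral membrane protein gene Ifitm1 had housing differences of -2.13 in WT and -3.31 in KO-labelled cells. The interferon-inducible GTPases had medians of -0.92 and -0.62 for genotype, with 7 of 14 and 3 of 14 at least 2-fold lower, among them Gbp6 (-1.67 and -1.52) and Gbp2 (-1.31 and -1.50). Of the genes that depend mainly on interferon gamma, 0 of 8 measured were 2-fold different between genotypes under SPF, and 2 of 9 were lower under GF housing, Psmb9 (-1.37) and Socs1 (-1.03). Their medians were -0.33 and -0.64. Between housings Ido1, a tryptophan-degrading enzyme, was at least 3.76-fold higher on the GF array in WT, whereas the peptide transporter gene Tap1 stood at -1.42 in WT and -1.62 in KO-labelled cells.

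**Figure D4:**
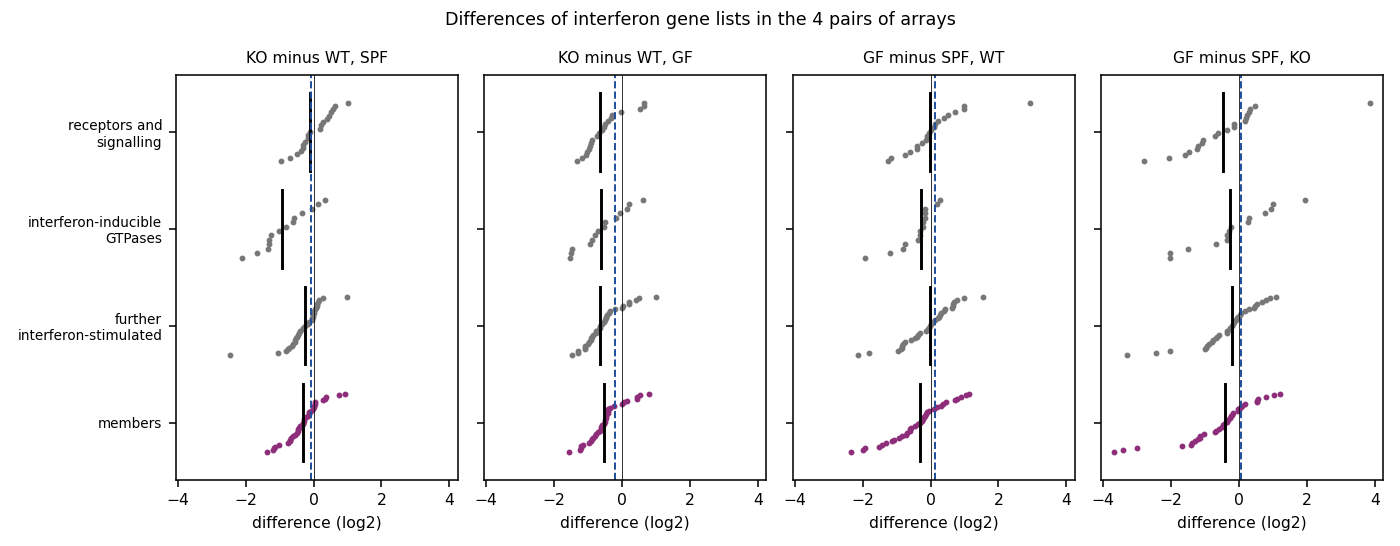
Differences (x axis, log2) of single genes in the 4 pairs of arrays, for the members (purple) and 3 other interferon lists (grey), each sorted by value, with the list median as a black bar and the median of all genes measured in the pair as a dashed blue line. In the genotype pairs the median of each list lies to the left of the dashed line. It is -0.31, -0.24, -0.92 and -0.10 under SPF and -0.52, -0.64, -0.62 and -0.64 under GF housing, from bottom to top.

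Markers of the sorted cells and of others were read on the same arrays. Flt3, a defining receptor of dendritic cells, was above background on all 4 arrays (0.26, 0.59, 0.14 and -0.71), as was Zbtb46 (-1.51, -0.06, -1.56 and -1.26). Summed levels, each the log2 of a list's added linear signals, are set mostly by the brightest probes. Among conventional dendritic cell markers one such probe is that of Sirpa (5.57 on the WT SPF array). Between 10 and 11 of 11 conventional dendritic cell markers were above background per array. Their summed levels were 6.33 and 6.45 on the SPF arrays, 6.06 for WT GF and 5.32 for KO GF. Their median difference was 0.42 for genotype under SPF and -0.83 under GF housing, so in the GF pair these markers were lower together with the interferon-stimulated genes. All 9 plasmacytoid dendritic cell markers, of a cell type known for interferon production, were above background throughout, with Siglech between 4.15 and 4.44 and summed levels of 4.54, 4.69, 5.13 and 5.81. The higher GF sums came with Klk1 (-0.79, -0.62, 3.50 and 4.92), while Ly6d, Runx2 and Cox6a2 were lower on the GF arrays in both genotypes, and the list's median housing difference was 0.08 in WT and -0.61 in KO-labelled cells. The 13 macrophage and monocyte markers had summed levels of 9.39, 9.25, 9.25 and 8.37, again lowest on the KO GF array. Their median housing difference was -0.14 in WT and -0.79 in KO-labelled cells. In WT 4 of 13 were at least 2-fold higher on the GF array and 1 lower, against 17.5% and 9.44% of all genes. In KO-labelled cells 2 were higher and 4 lower, against 21.6% and 15.4%. In both genotypes Cd163 (3.47 and 2.10) was highest and Ccr2 (-2.04 and -2.52) lowest. B cell and plasma cell markers summed to 5.55 on the WT SPF, 7.11 on the KO SPF, 3.92 on the WT GF and 3.15 on the KO GF array. T cell and natural killer cell markers summed to 4.08, 4.28, 5.42 and 4.88, of which Cd4 (3.30, 3.38, 5.18 and 4.47) made up most. Cd4, Cd3e and Eomes were higher on the GF arrays in both genotypes, while Gzma, Tbx21 and Cd3d were lower there. The list's median housing difference was 0.60 in WT and -0.84 in KO-labelled cells. Cd8a and Ncr1 were not above background on any array. The part of these cell types in the members' differences was not tested.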

How the data were processed

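Total RNA of dendritic cells isolated by flow cytometry was amplified as cDNA, labelled with Cy3 and hybridised to 1-colour Agilent arrays, per the labels' protocols. The scanner files were made with Agilent Feature Extraction, a tool the submitters' processing notes name, in version 10.10.1.1 with protocol GE1_1010_Sep10 and an mm9 design, per the file headers. They hold a processed intensity per spot, background-subtracted and not scaled between arrays, per the file headers. The deposited series table holds intensity values too, and its columns were the processed signal times 8.30, 8.24, 7.08 and 7.96 (WT SPF, KO SPF, WT GF, KO GF), with column medians of 237.2, 216.3, 235.7 and 331.4. It is linear and not centred, and the rule behind its factors stays unknown.

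From the deposited intensity, log2 values were taken, spots flagged as non-uniform or population outliers and 3671 control spots left out, spots of a probe averaged and the 75th percentile over 55597 probes subtracted. Accessions, without version, were matched to RefSeq (GRCm38.p6), which named 27185 probes and left 28412 unnamed, 19 of the probes having conflicting names. The probe with the highest mean stood for a gene. A gene counted as measured in a pair when either array had it above background. For a gene dim on 1 array, a fold is a lower bound, with the dim side set to its own reading or, if higher, to that array's lowest detected signal. Limma 3.58.1 (R 4.3.3) was fitted to the 15026 genes detected on 2 or more arrays, with two-sided moderated tests and Benjamini-Hochberg adjustment, and was tested on simulated data. Where a p is given for housing or genotype, the number of arrays limits its precision. Python 3.11.15 with matplotlib 3.10.9 made the figures.

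The members and gene lists were chosen with earlier results of these data known. Members given with all 4 values were, in each role group, the member with the highest mean signal, those 2-fold different in a pair while above background on both of its arrays, and those below background on an array. From the other lists, genes at either end of a pair were named. A few further members and genes were chosen after their values were seen. Alternatives were quantile scaling, normexp on median signals (offset 50), the deposited table, genes above background on all 4 arrays, the mean of a gene's probes and, for limma, an intensity trend with robust prior.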

Additional observations from a re-analysis of the deposited data

Results flagged for a closer look

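Of the 32 members above background on all 4 arrays, 9 had genotype differences of opposite sign under SPF and GF housing. Over all features measured in both housings, the signs were opposite for 10 of 34 members and 6710 of 14200 genes. For Cxcl9, Ifi35, Oas3, Ifih1 and Cmpk2, and for Irf7 under SPF, 1 of both differences lies within 0.10 of 0, the repeat-spot SD, so its sign is not settled. With the deposited table Oas3, Ifi35 and Ifih1 were negative in both housings, and with quantile scaling Cmpk2 was. As each group is 1 array, these differences of differences, given as the GF minus the SPF genotype difference, were not tested. Cxcl10 had -2.29 (0.74 under SPF and -1.55 under GF housing), Oasl1 -1.32 (0.92 and -0.40), Rsad2 -1.25 (0.27 and -0.98), Oas3 -1.24 (0.03 and -1.21) and Ifi35 -1.17 (0.02 and -1.15). The other way round, Cmpk2 had 1.41 (-1.36 and 0.06) and Cxcl9 1.20 (-1.20 and 0.00), though the other probe of Cxcl9 was lower on the KO-labelled array in both housings, and so was the other probe of Cmpk2 (-0.36 and -0.41). Ifih1 (-0.46) and Irf7 (0.24) differed by less than 2-fold in each housing.

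Housing differences had opposite directions in WT and KO-labelled cells for 4 of 34 members, also untested, where they had for 4128 of 14853 genes. Oas3 was at 0.88 in WT and -0.35 in KO-labelled cells (-1.24 between them), and Cmpk2 at -1.32 and 0.09 (1.41). Stat2 was at -0.30 and 0.18 (0.48) and Isg20 at 0.18 and -0.03 (-0.21). In KO-labelled cells the Cmpk2 and Isg20 differences were smaller than the repeat-spot SD used above for genotype signs, so their signs are not settled. The other Cmpk2 probe was lower on the GF array in both genotypes (-0.26 in WT and -0.31 in KO-labelled cells). So was the other Isg20 probe (-0.11 and -0.67).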

How the results depend on the processing

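Each result was recomputed under the alternatives named above, and a median counted as unmoved within 0.10, the largest median SD of repeat spots. Normexp was run on median signals, chosen after seeing the data, since the scanner output held no mean signals. The members' median kept its negative sign under every alternative run in all 4 pairs. No difference of a member that was 2-fold in the values reported changed sign in 163 recomputations. Many of these could not change a sign. Keeping genes above background on all 4 arrays, or averaging the probes of a 1-probe member, repeats the same values, and the deposited table adds a constant to each pair. Read alone, the other Oas1a probe had the opposite housing direction (0.65 in WT and 0.31 in KO-labelled cells). Normexp moved the SPF genotype median to -0.18 with 2 members lower, and the GF genotype median to -0.40 with 3 lower. It left 5 members lower between housings in WT, and 5 lower and 0 higher in KO-labelled cells. The deposited table moved the GF genotype median to -0.23, with 1 member lower and 1 higher, and the KO housing median to -0.063 with 6 lower, and 2 members passed limma for housing. Subtracting the median of all genes, an alternative chosen after seeing the data, gave -0.32 for genotype under GF and -0.42 for housing in WT. Counting dim members at their bound changed no count. Members passing limma for housing ran from 2 to 7, of which only Oasl1 and Isg15 passed under every alternative, and for genotype 0 passed under any. The calls over all genes depended on the setting, with 21 for genotype as reported, 0 with quantile, normexp, deposited-table or probe-mean values, 38 when only genes detected on all 4 arrays were fitted, and 81 with the intensity trend. For housing they were 2503 as reported and 1323 with normexp. Signal close to background limits Ifit1, Ifi44 and Oas1g.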

Other observations

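The name Phf11 belongs, as an older symbol, to 3 measured genes of the PHD finger family, which were set aside above. Phf11a read 2.32, 1.42, 1.45 and 0.37 and Phf11d 2.80, 1.95, 2.04 and 1.16 on the WT SPF, KO SPF, WT GF and KO GF arrays. Both were lower on the KO-labelled array in each housing, at -0.90 and -1.08 for Phf11a and at -0.85 and -0.88 for Phf11d, and lower on the GF array in each genotype. The dim Phf11c stayed between -3.37 and -2.72.

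The 11 members with the ISRE letters in a promoter had median differences of -0.21 and -0.78 for genotype under SPF and GF housing, and -0.56 and -1.14 for housing in WT and KO-labelled cells. The 16 members with a promoter in the table and no such letters had -0.20 and -0.41, and -0.23 and -0.46. Oasl1, with the lowest housing difference of all, was among the 16. The medians count every member, including Ifit1 for genotype under GF housing and Ifi44 for housing in KO-labelled cells, each above background on neither array. All are values without a test.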
